A study of Mus musculus with 6 samples.

Results

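The SLC25 family is the mitochondrial carrier family, a group of related transport proteins that sit mainly in the inner mitochondrial membrane. Carriers move metabolites, nucleotides, phosphate, amino acids and cofactors between the cytosol and the matrix, mostly by exchanging one solute for another, and so link glycolysis, amino acid breakdown and lipid synthesis to the tricarboxylic acid cycle and ATP synthesis. The kidney proximal tubule, which works largely by oxidative metabolism, is rich in mitochondria. The genes described here are those whose transcript cluster on the array carries a single platform gene symbol that starts with Slc25a. Slc25a20, the carnitine-acylcarnitine carrier, is left out. This gave 45 genes with 1 cluster each, of which 42 were among the 22086 genes tested. Slc25a2, Slc25a31 and Slc25a54 did not pass the filter on low values. Their levels lay between 3.61 and 4.16 on all arrays, around the filter's limit of a mean of 4.03.

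Single-colour arrays, 1 for each of 6 biological replicates, measured kidney RNA from female mice of the Pkd1 miR transgenic line, in which an RNA against Pkd1 is expressed and cysts form. Mice of 3 replicates were injected with saline and those of 3 with metformin, a biguanide known to inhibit respiratory complex I, at a dose of 150 mg/kg/day i.p. that began on postnatal day 35 and lasted until the kidneys were collected on day 63. Both groups carry the transgene, and no mice without it enter the comparison. The sources used here do not give its promoter, the cells it is active in, or whether a replicate is 1 mouse or a pool. Values are log2 expression, and a change is metformin minus saline in log2 units with the standard error (SE) of the limma fit. The medians of the arrays lay between 4.67 and 4.86. Their upper quartiles lay between 7.01 and 7.12 with saline and higher, between 7.21 and 7.34, with metformin. Kidney markers were bright on all arrays, with uromodulin (Umod) between 18.69 and 19.10 and megalin (Lrp2) between 16.41 and 18.01.

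Carriers of the Slc25 family were mostly lower in the metformin kidneys. Of the 42 genes tested, 15 fell, 1 rose and 26 did not pass an adjusted p under 0.05 (limma, Benjamini-Hochberg over all genes tested). The genes that fell are Slc25a1, a5, a11, a12, a13, a15, a16, a17, a21, a23, a32, a34, a39, a44 and a45, and the gene that rose is Slc25a27. The falls ran from 1.33-fold for Slc25a32 to 2.43-fold for Slc25a16, with 11 of at least 1.5-fold and 3 of at least 2-fold. Among all genes tested 15.8% passed the threshold, 9.08% that fell and 6.71% that rose, and among the 42 carriers 35.7% fell. The median change of the 42 carriers was -0.28, against 0.02 over all genes tested, and 32 carriers lay below 0. The count rests on single arrays: 2 carriers fell without saline replicate 1, 6 each without metformin replicate 1 and without metformin replicate 2, and 7 without saline replicate 3. The share of all genes that fell in those fits was 2.22%, 3.21%, 3.54% and 5.37%.

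Groups that do not overlap give a description that needs no variance model. In 27 of the 42 carriers every metformin value lay under every saline value, and in 2, Slc25a27 and Slc25a37, every metformin value lay above. Over all genes tested 37.3% were separated in either direction, 19.4% downwards and 17.8% upwards. The direction of the family did not turn with the scaling of the arrays. With each array centred on its median 19 carriers fell and 1 rose, and after quantile normalization 22 fell and 1 rose. Over all genes the split was 2006 lower and 1483 higher as deposited, 2713 and 913 after centring and 3806 and 993 with quantile normalization. The median over all genes tested was 0.02 as deposited and -0.10 with quantile normalization, and that of the carriers -0.28 and -0.39.

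Brightness on the array was related to the result. Of 27 carriers with a mean of at least 8, 14 fell, while of 15 with a mean under 8 Slc25a34 fell and Slc25a27 rose. Among all genes 17.7% of those at 8 or above fell and 3.76% of those under 8, so the genes at 8 or above fell more often in the family and in the whole table. At a mean of at least 10, 9 of 16 carriers fell, against 19.9% of all such genes. The median change of the 27 brighter carriers was -0.46, against -0.08 for all genes at 8 or above.

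**Figure D1:**
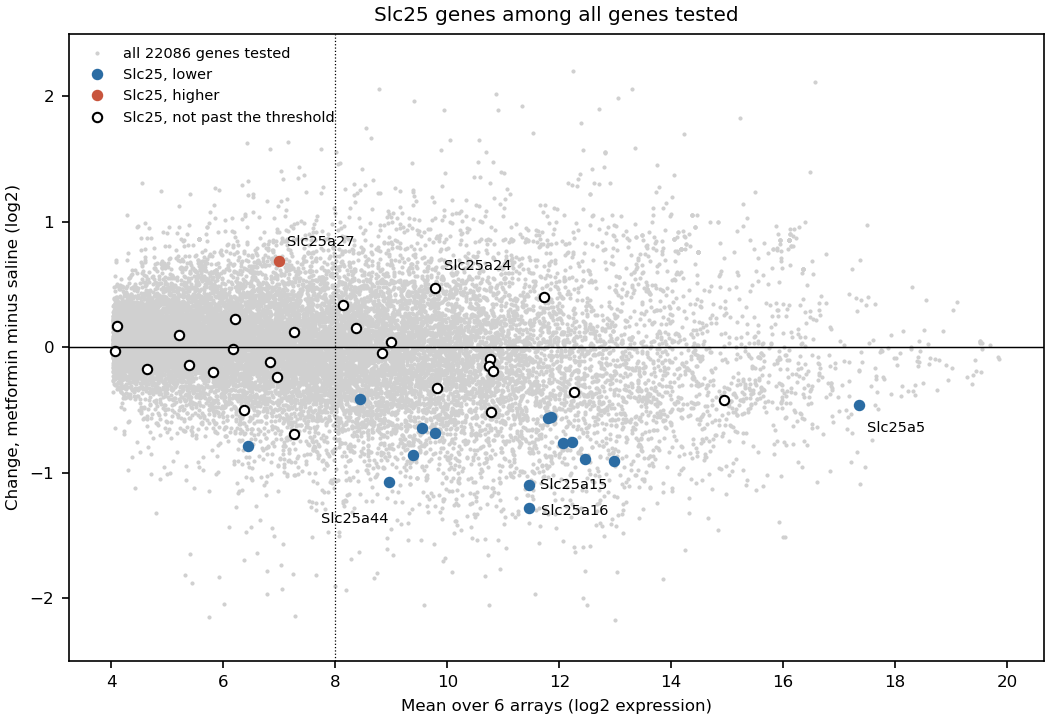
Mean log2 expression over the 6 arrays (x axis) against the change, metformin minus saline in log2 units (y axis), for all 22086 genes tested in grey and for the 42 Slc25 genes as larger points. The dotted line marks a mean of 8; 14 of the 15 Slc25 genes that fell lie to its right, and 9 genes with a change beyond 2.5 in size lie outside the axis.

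Promoters of carriers that moved together are shown for 4 genes that fell, from the RefSeq table of build GRCm38.p6 (250 bases before to 50 after the annotated start, read 5′ to 3′ on the gene's strand). Slc25a12 and Slc25a13 are shown as the pair of aspartate-glutamate carriers, Slc25a16 as the carrier with the largest change, and Slc25a34 as the single carrier with a match to AAGGTCA, a site bound by estrogen-related receptors. Capitals mark matches to CCAAT or AAGGTCA on either strand. The promoter of Slc25a12 is chr2:71367706-71368005 (minus strand), that of Slc25a13 chr6:6217124-6217423 (minus strand), that of Slc25a16 chr10:62920383-62920682 (plus strand) and that of Slc25a34 chr4:141623785-141624084 (minus strand).
Slc25a12: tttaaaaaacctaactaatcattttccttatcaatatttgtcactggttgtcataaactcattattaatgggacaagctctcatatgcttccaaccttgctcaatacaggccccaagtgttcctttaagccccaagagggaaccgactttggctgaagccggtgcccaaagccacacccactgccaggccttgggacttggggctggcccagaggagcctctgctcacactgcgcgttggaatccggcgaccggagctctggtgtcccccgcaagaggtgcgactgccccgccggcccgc
Slc25a13: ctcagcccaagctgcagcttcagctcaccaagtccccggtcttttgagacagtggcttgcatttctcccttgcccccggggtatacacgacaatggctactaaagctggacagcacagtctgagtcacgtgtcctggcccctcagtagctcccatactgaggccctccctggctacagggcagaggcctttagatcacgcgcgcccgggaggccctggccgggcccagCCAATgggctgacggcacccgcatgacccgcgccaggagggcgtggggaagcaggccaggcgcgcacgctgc
Slc25a16: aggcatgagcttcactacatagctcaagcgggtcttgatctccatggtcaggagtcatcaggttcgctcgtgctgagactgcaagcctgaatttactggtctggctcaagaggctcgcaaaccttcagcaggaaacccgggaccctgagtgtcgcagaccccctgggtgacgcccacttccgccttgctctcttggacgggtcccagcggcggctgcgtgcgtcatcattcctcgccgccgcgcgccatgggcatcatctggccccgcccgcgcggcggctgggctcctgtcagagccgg
Slc25a34: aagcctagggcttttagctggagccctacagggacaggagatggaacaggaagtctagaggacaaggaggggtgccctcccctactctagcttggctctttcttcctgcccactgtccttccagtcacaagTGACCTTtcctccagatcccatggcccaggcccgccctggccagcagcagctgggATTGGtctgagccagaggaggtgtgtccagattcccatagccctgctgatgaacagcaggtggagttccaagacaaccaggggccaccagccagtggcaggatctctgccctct
The promoter of Slc25a13 has a CCAAT box that begins 22 bases before the start, and that of Slc25a34 has one on the opposite strand 64 bases before it, with AAGGTCA on the opposite strand 119 bases before it. The windows of Slc25a12 and Slc25a16 hold neither run of letters. The table held promoters for 33 of the 42 carriers. CCAAT on either strand was present in 19 of these (7 of 13 carriers that fell, 12 of the 20 others), AAGGTCA in 1 and the NRF1 motif in 1, Slc25a3, which was not past the threshold. Over the 32851 promoters in the table, which hold several for some genes, the shares were 37.4%, 4.72% and 2.44%, and over its 27025 genes 41.1%, 5.38% and 2.77%. A match describes letters only.

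Carriers of dicarboxylates, tricarboxylates and keto acids fell in 3 of 4 genes, beside 9.08% of all genes and 17.7% of those at 8 or above. These proteins exchange citrate, malate, oxoglutarate and related acids and feed the malate-aspartate shuttle and cytosolic lipid synthesis. In this and the following paragraphs the values of a group are given in the order of replicates 1, 2 and 3. Separated groups named in them stand beside 19.4% of all genes separated downwards and 17.8% upwards. At a mean of at least 10, 35.6% of all genes were separated downwards. Slc25a21, which carries 2-oxoadipate from the breakdown of lysine and tryptophan, measured 9.93, 9.70 and 9.81 with saline and 8.82, 8.98 and 9.08 with metformin. Its fall of 1.81-fold (change -0.86 ± 0.11, SE, n = 3 per group) had an adjusted p of 0.00735 in limma, the smallest of the 42 carriers. Slc25a21 and Slc25a12 are the 2 carriers whose fall passed the threshold in each fit that left out 1 array, and without any array the change of Slc25a21 stayed between -0.92 and -0.78. Slc25a1, the citrate carrier that exports citrate for fatty acid synthesis, read 10.27, 10.24 and 9.88 with saline against 9.28, 9.54 and 9.51 with metformin, a change of -0.69 ± 0.14 (SE; limma adjusted p = 0.0197). The oxoglutarate-malate carrier Slc25a11 went from 12.25, 11.99 and 12.14 to 11.44, 11.59 and 11.68, a change of -0.55 ± 0.11 (SE; limma adjusted p = 0.0204). All 3 genes had their saline values wholly above their metformin values. Slc25a10, the dicarboxylate carrier, was separated too, with 10.88, 11.13 and 11.11 against 9.98, 10.73 and 10.87, but its change of -0.51 did not pass (limma adjusted p = 0.168), and its metformin SD of 0.48 was more than that of any gene of this group that fell. Slc25a1 did not pass without saline replicate 1 or metformin replicate 1 or 2 (limma adjusted p up to 0.0780), and Slc25a11 did not pass without any of these or without saline replicate 3 (up to 0.0781).

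Amino acid carriers fell in 4 of 8 genes, beside 9.08% of all genes and 17.7% of those at 8 or above. These 4 had the larger changes of the group. Slc25a12 and Slc25a13 are the calcium-regulated aspartate-glutamate carriers, the step of the malate-aspartate shuttle that moves aspartate out of the matrix. Slc25a12 measured 12.25, 12.52 and 12.58 with saline and 11.48, 11.86 and 11.73 with metformin (change -0.76 ± 0.14, SE; limma adjusted p = 0.0151). Slc25a13 measured 12.74, 12.78 and 13.17 against 11.71, 12.15 and 12.15 (change -0.89 ± 0.17, SE; limma adjusted p = 0.0173). Both isoforms were separated between the groups by similar amounts. The difference between their changes, Slc25a12 minus Slc25a13, was 0.13 ± 0.11 (SE over arrays), and the per-array differences overlapped.

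Slc25a15, the ornithine carrier that connects arginine and ornithine metabolism across the membrane, went from 11.94, 11.76 and 12.32 to 10.33, 11.15 and 11.25. That is a fall of 2.15-fold (change -1.10 ± 0.26, SE; limma adjusted p = 0.0310). Metformin replicate 1 was the lowest array, and without it the change was -0.81. Slc25a44, the carrier of branched-chain amino acids described in brown fat, measured 9.61, 9.67 and 9.20 with saline and 8.03, 8.63 and 8.57 with metformin, a fall of 2.11-fold (change -1.08 ± 0.19, SE; limma adjusted p = 0.0154). The other 4 amino acid carriers had changes between -0.23 and 0.17 and did not pass: the heme-linked glycine carrier Slc25a38, the glutamate carriers Slc25a22 and Slc25a18 and the basic amino acid carrier Slc25a29. Slc25a18 and Slc25a29 had means of 4.10 and 4.63, near the low end of the values. Without saline replicate 1 the falls of Slc25a13, Slc25a44 and Slc25a15 did not pass (limma adjusted p of 0.0522, 0.0676 and up to 0.0963); Slc25a15 also did not pass when saline replicate 3 or either of metformin replicates 1 and 2 was left out.

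Among carriers of adenine nucleotides and phosphate, which supply ADP and phosphate to ATP synthase and export ATP, 2 of 7 fell. Of all genes 9.08% fell, and of those at 8 or above 17.7%. Slc25a5, the adenine nucleotide translocase ANT2, measured 17.62, 17.47 and 17.65 with saline and 16.95, 17.22 and 17.20 with metformin (change -0.46 ± 0.11, SE; limma adjusted p = 0.0344). Slc25a4, the translocase ANT1, had values of 15.28, 14.95 and 15.22 against 14.66, 14.68 and 14.86 (change -0.42 ± 0.12, SE; limma adjusted p = 0.0524). Blocking on the replicate number gave it a limma adjusted p of 0.0450, and it passed in 5 of the 9 alternatives with all arrays. It passed in 1 of the 6 fits that left out an array (limma adjusted p up to 0.165). Both changes were of like size, with a difference of changes of -0.04 ± 0.09 (SE over arrays) whose per-array values overlapped (-0.18 after quantile normalization). Both are close paralogs, Slc25a5 has processed pseudogenes, and shared probe signal was not tested. Slc25a23, a calcium-regulated exchanger of ATP-magnesium for phosphate, went from 12.44, 12.63 and 12.76 to 11.51, 11.94 and 12.11, a change of -0.76 ± 0.17 (SE; limma adjusted p = 0.0273). Its relatives Slc25a24 and Slc25a25 had changes of 0.47 (95% interval -0.43 to 1.37) and 0.12 (-0.36 to 0.61), with overlapping groups. The phosphate carrier Slc25a3, which brings in the phosphate for ATP synthesis, had a change of -0.09 with a 95% interval of -0.34 to 0.16, so a fall as large as that of Slc25a16 lies outside its interval. Slc25a41 had a mean of 4.06 and a change of -0.03. Slc25a23 passed only with all arrays or without saline replicate 2 or metformin replicate 3, and Slc25a5 only with all arrays or without saline replicate 2 (limma adjusted p in the other fits up to 0.0692 and 0.113).

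Of 10 carriers of cofactors, nucleotides and glutathione, 4 fell, beside 9.08% of all genes and 17.7% of those at 8 or above. Slc25a16, a carrier linked to coenzyme A in the matrix, had the largest change of the family, from 12.24, 11.88 and 12.20 to 10.41, 10.90 and 11.17 (12.11 ± 0.20 to 10.83 ± 0.39, SD, n = 3 per group). The change of -1.28 ± 0.20 (SE) had a limma adjusted p of 0.0109, and 0.0509 without saline replicate 1. Slc25a17, a peroxisomal carrier of coenzyme A, FAD and NAD, measured 13.49, 13.07 and 13.76 with saline and 12.20, 12.67 and 12.73 with metformin, a change of -0.91 ± 0.21 (SE; limma adjusted p = 0.0293). Slc25a42, the characterised mitochondrial coenzyme A carrier, had values of 8.81, 8.66 and 9.07 against 8.56, 8.89 and 8.95, a change of -0.04 with a 95% interval of -0.39 to 0.30. The difference between the changes of Slc25a16 and Slc25a42, taken within arrays, was -1.24 ± 0.14 (SE over arrays) with no overlap of the groups (exact permutation test, two-sided, p = 0.10, the smallest that 3 against 3 arrays allow).

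Slc25a39, which brings glutathione into the matrix, fell from 12.15, 11.97 and 12.11 to 11.27, 11.63 and 11.63 (change -0.57 ± 0.13, SE; limma adjusted p = 0.0273). Its paralog Slc25a40 had a change of 0.04 with a 95% interval of -0.18 to 0.27, and the difference of changes of -0.61 ± 0.18 (SE over arrays) had groups without overlap. The folate and FAD carrier Slc25a32 had the least spread of the genes that fell, with 8.68, 8.64 and 8.62 against 8.15, 8.28 and 8.29 (change -0.41 ± 0.09, SE; limma adjusted p = 0.0247). Slc25a33, a pyrimidine nucleotide carrier, had a change of -0.50 (limma adjusted p = 0.0674). The other carriers of the group, Slc25a36 for pyrimidine nucleotides, Slc25a26 for S-adenosylmethionine and Slc25a51 for NAD, had changes between -0.19 and -0.12 and did not pass. The groups of each did not overlap, beside 19.4% of all genes separated downwards. Slc25a17 and Slc25a39 lost the threshold when any of saline replicates 1 and 3 and metformin replicates 1 and 2 was left out (limma adjusted p up to 0.102 and 0.0994), and Slc25a32 passed in 1 of the 6 fits that left out an array, that without saline replicate 2 (up to 0.0880 in the others).

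On the deposited scale the mitoferrins and the uncoupling-protein-like carriers did not share the downward changes. Mitoferrins import iron for heme and iron-sulfur clusters. Slc25a37, mitoferrin 1, measured 7.89, 8.16 and 7.85 with saline and 8.30, 8.36 and 8.25 with metformin, a change of 0.34 ± 0.11 (SE; limma adjusted p = 0.0811). Slc25a28, mitoferrin 2, had 8.37, 8.31 and 8.20 against 8.39, 8.65 and 8.32, a change of 0.16 with overlapping groups. Slc25a27, also called UCP4 and known from the brain, rose from 6.59, 6.80 and 6.55 to 7.58, 7.26 and 7.17, a rise of 1.61-fold (change 0.69 ± 0.13, SE; limma adjusted p = 0.0182). Every metformin value lay above every saline value, and the rise did not pass without saline replicate 1 or without metformin replicate 2 (limma adjusted p up to 0.0743). Slc25a30, first described as a kidney mitochondrial carrier, had values of 11.51, 11.78 and 11.29 against 12.22, 12.01 and 11.54, a change of 0.40 (95% interval -0.06 to 0.86) with overlapping groups. Slc25a14 had a change of -0.02. The upward changes were smaller after rescaling. With quantile normalization Slc25a27 had a change of 0.47 (limma adjusted p = 0.02475) and Slc25a37 one of 0.16 (limma adjusted p = 0.262).

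Of 8 carriers listed here as having no settled substrate or a place in the outer membrane, 2 fell. Beside them stand 9.08% of all genes that fell and 17.7% of those at 8 or above. Slc25a45 measured 9.97, 9.85 and 9.77 with saline and 9.12, 9.39 and 9.16 with metformin (change -0.64 ± 0.11, SE; limma adjusted p = 0.0139). Slc25a34 measured 7.19, 6.51 and 6.81 against 5.88, 5.99 and 6.28 (change -0.79 ± 0.19, SE; limma adjusted p = 0.0327), and its saline values spread more, with an SD of 0.34. Slc25a45 did not pass without saline replicate 1 (limma adjusted p = 0.0587), and Slc25a34 lost the threshold without that array and without each of saline replicate 3 and metformin replicates 1 and 2 (up to 0.104). The next genes lay just outside the threshold. Slc25a48, linked to mitochondrial choline uptake, had a change of -0.70 (limma adjusted p = 0.0514). Slc25a46, an outer membrane protein of mitochondrial dynamics, went from 12.63, 12.33 and 12.38 to 12.11, 12.08 and 12.06 (change -0.36, limma adjusted p = 0.0580), and Slc25a35 had a change of -0.33 (limma adjusted p = 0.0860). Slc25a53, Slc25a47 and Slc25a43 had changes of -0.14, 0.10 and 0.23.

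**Figure D2:**
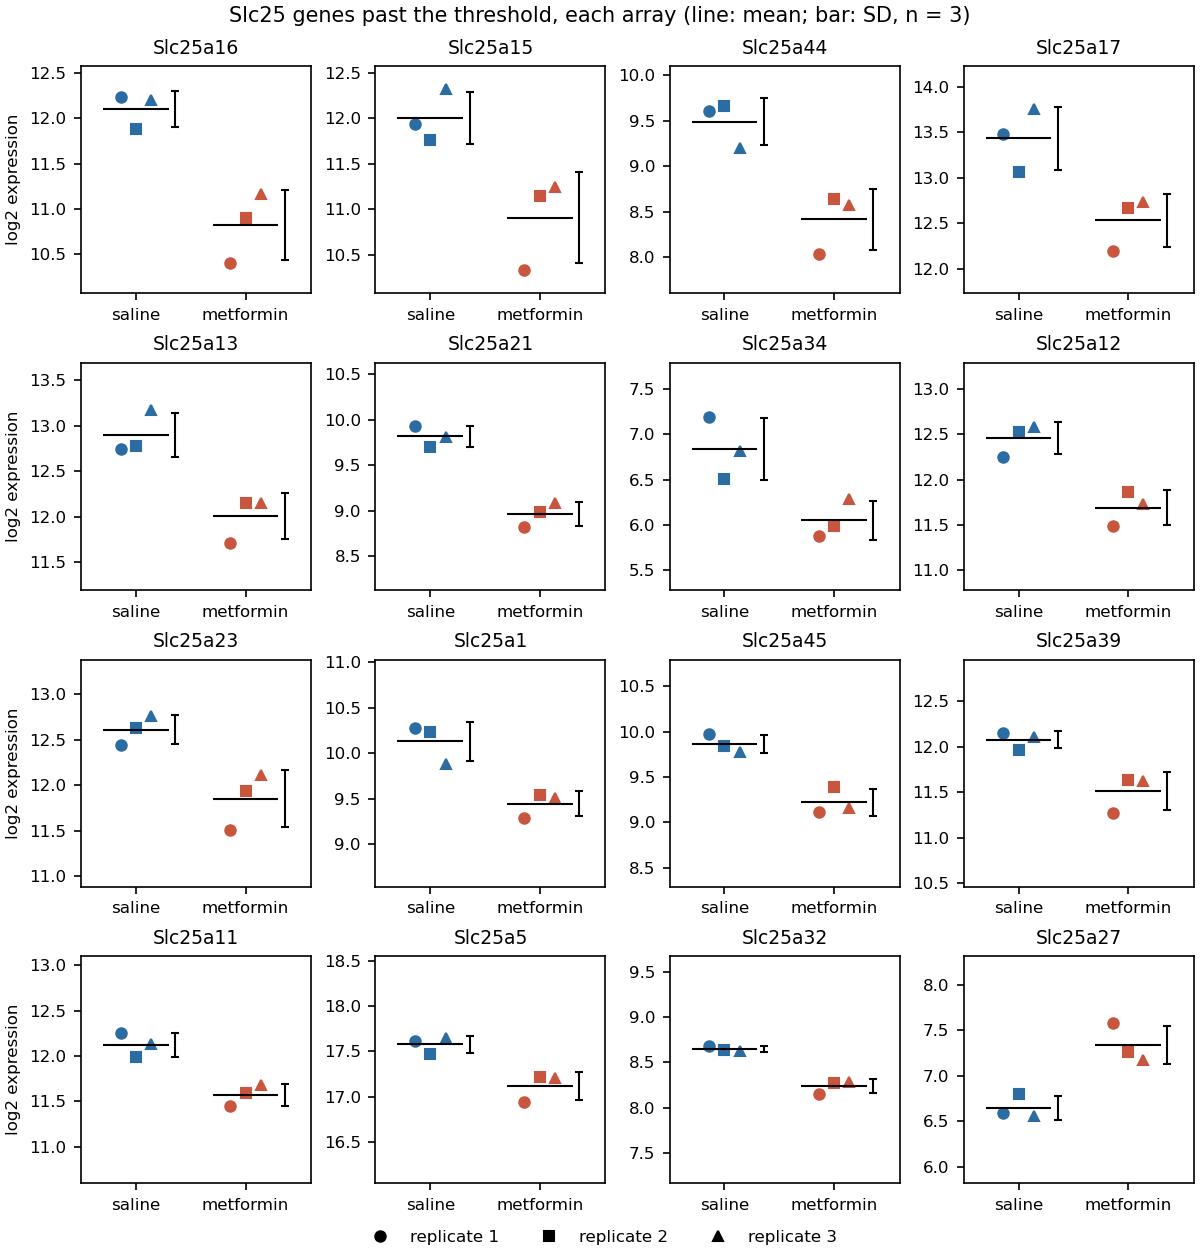
Log2 expression of the 16 Slc25 genes past the threshold on each array, with saline in blue and metformin in red; symbols mark replicate numbers, lines the group means and bars the SD (n = 3 per group). Each panel spans 2.5 log2 units. The groups do not overlap in any panel, and metformin replicate 1 is the lowest array in each of the 15 genes that fell.

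**Figure D3:**
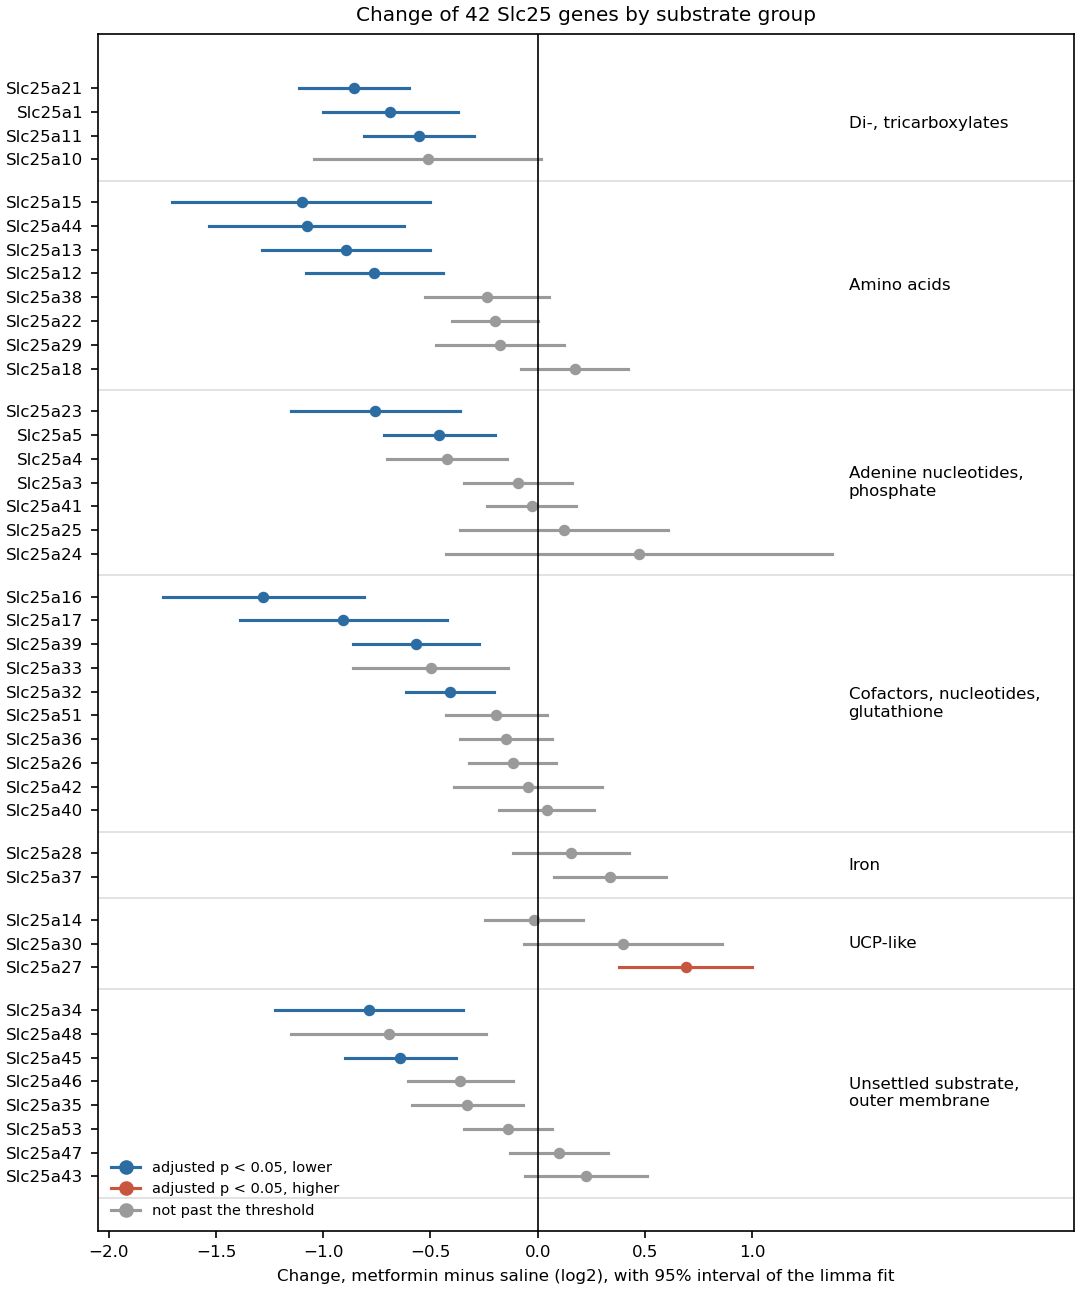
Change of the 42 Slc25 genes tested, metformin minus saline in log2 units, with the 95% interval of the limma fit, ordered by substrate group. Genes that fell are blue, the gene that rose is red and genes not past the threshold are grey; the intervals of the 20 genes with an adjusted p over 0.10 span -1.04 to 1.37.

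Across 9 comparisons of related carriers, chosen after the values were seen, 5 had differences of changes without overlap between the groups. Besides Slc25a16 with Slc25a42 and Slc25a39 with Slc25a40, these were Slc25a23 with Slc25a25 (-0.88 ± 0.21, SE over arrays), Slc25a33 with Slc25a36 (-0.35 ± 0.14) and Slc25a27 with Slc25a14 (0.71 ± 0.15). Each had an exact permutation p of 0.10 (Benjamini-Hochberg 0.18 over the 9), so none can pass a threshold of 0.05 in this design. Most of these 5 set carriers of unlike mean level together. The means were 11.5 and 8.8 for Slc25a16 and Slc25a42, 11.8 and 9.0 for Slc25a39 and Slc25a40, and 12.2 and 7.3 for Slc25a23 and Slc25a25. They were 6.4 and 10.7 for Slc25a33 and Slc25a36, and 7.0 and 6.2 for Slc25a27 and Slc25a14. The part of level in these differences was not tested. The differences overlapped for Slc25a12 with Slc25a13, Slc25a5 with Slc25a4, Slc25a23 with Slc25a24 (-1.23 ± 0.67) and Slc25a37 with Slc25a28 (0.18 ± 0.12). Taken within replicate numbers, 6 of the 9 comparisons had all 3 differences of one sign, the 5 above and Slc25a23 with Slc25a24 (-2.01, -0.43 and -1.26). For the 5 above this was fixed in advance, because groups without overlap give one sign under any pairing. Each of the 6 had an exact sign-flip p of 0.25, the smallest that 3 pairs allow.

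The arrays differed in how far the family moved. The mean deviation of the 42 carriers from each gene's own mean was 0.19, 0.13 and 0.16 with saline and -0.27, -0.09 and -0.12 with metformin. For the 15 genes that fell, metformin replicate 1 held the lowest metformin value in all 15, saline replicate 1 the highest saline value in 8, and saline replicate 2 the lowest saline value in 8. Proximal tubule markers were lower on the metformin arrays as well. Their mean deviation was 0.39, 0.20 and 0.61 with saline and -0.83, -0.34 and -0.03 with metformin, with all 19 below 0 in change and 9 that fell, and their summed level on the log2 scale ran from 21.01 to 21.32 with saline and from 20.33 to 20.92 with metformin. The median change of these markers was -0.78. The mean deviation of distal nephron markers was also lower on the metformin arrays, at 0.17, 0.16 and 0.12 with saline and -0.29, -0.01 and -0.15 with metformin. Of 9 distal markers 7 lay below 0 (median change -0.44) and Aqp3 fell, and their summed levels were 19.57 to 19.76 with saline and 19.33 to 19.62 with metformin. The share that fell was 47.4% of proximal and 11.1% of distal markers, beside 9.08% of all genes and 19.9% of those with a mean of at least 10. Separated downwards were 94.7% of proximal and 33.3% of distal markers, beside 35.6% of all genes with a mean of at least 10. The distal shares rest on 1 and 3 of 9 markers and lay under those of genes at 10 or above. In median change the distal list lay lower, at -0.44 against -0.11 for all genes at 10 or above. Pvalb, at 6.43 to 7.34, is dimmer than that level. In whole kidney, fewer cells of a type and less RNA per cell cannot be told apart, and the part of these markers in the carrier changes was not tested.

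Markers of fat were also higher on 2 saline arrays. The 8 adipocyte markers tested had a mean deviation of 0.97, 1.82 and -0.44 with saline and -0.80, -0.79 and -0.75 with metformin, and summed levels of 10.57 to 12.45 and 10.23 to 10.58. Adipoq fell (1 of 8, beside 9.08% of all genes). The brown fat gene Ucp1, itself a carrier of this family under another symbol, read 7.46, 10.29 and 4.68 with saline and 3.96, 3.74 and 3.91 with metformin (change -3.61, limma adjusted p = 0.0805). Without saline replicate 2, 19 carriers fell and 2 rose, and 9.65% of all genes fell. Without saline replicate 1, the other array with high fat markers, 2 carriers fell, Slc25a27 did not pass, and 2.22% of all genes fell. Of 10 macrophage markers all lay above 0 and 1 rose (Lyz2), beside 6.71% of all genes that rose. The groups of 8 overlapped and 2 were separated upwards, beside 17.8% of all genes. Their mean deviation overlapped too, at -0.47, 0.37 and -0.94 with saline and 0.53, 0.42 and 0.08 with metformin. Summed levels were 12.03 to 13.88 and 14.27 to 14.55. The brightest marker in that sum, Lyz2, read 11.81, 13.28 and 11.09 with saline and 14.14, 14.01 and 13.98 with metformin. Slc25a24 read 9.53, 10.25 and 8.87 with saline and 10.60, 9.99 and 9.48 with metformin, and saline replicate 2 was the highest saline array for this gene, for the macrophage list and for the adipocyte list. Erythroid markers, of interest for mitoferrin 1, were dim: 3 of 12 were tested, with summed levels of 6.71 to 7.01 and 6.48 to 6.54, and Alas2 fell (1 of 3). The part of these cell types in the carrier changes was not tested.

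**Figure D4:**
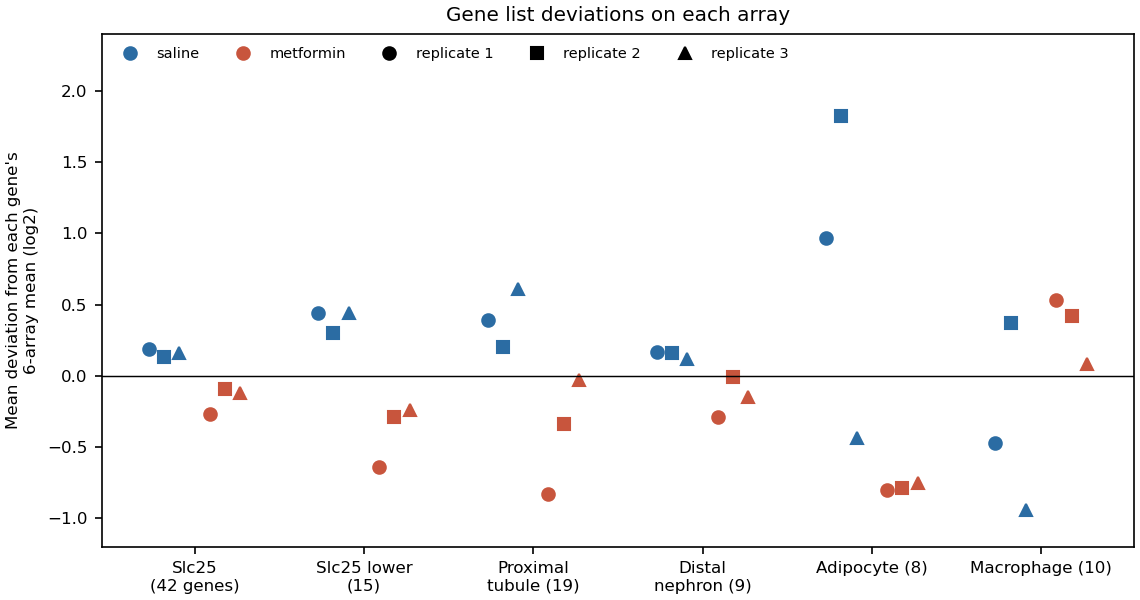
Mean deviation of each gene list from its genes' 6-array means, in log2 units, on each array, with saline in blue, metformin in red and symbols for the replicate number. The 42 carriers lie at 0.13 to 0.19 with saline and at -0.27 to -0.09 with metformin; the proximal tubule list is ordered in the same direction, and the adipocyte list is high on saline replicates 1 and 2.

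Genes that work with the carriers were taken from 4 lists. Carrier proteins are made in the cytosol and reach the inner membrane through the TOM complex, the small TIM chaperones and the TIM22 complex. Of 13 genes of this import route tested, 5 fell and 8 did not pass (median change -0.33), beside 9.08% that fell among all genes and 17.7% among those with a mean of at least 8. The changes were -1.04 for the chaperone Timm8a1, -0.68 for the TIM22 channel Timm22, -0.56 for the receptor Tomm20, -0.54 for the TIM22 subunit Timm29 and -0.50 for the pore Tomm40, with limma adjusted p from 0.0143 to 0.0422. Timm22 read 7.92, 7.77 and 7.93 with saline and 6.94, 7.50 and 7.15 with metformin. Of 4 family members that carry other symbols, Mtch2, an outer membrane insertase, fell by 0.46 (limma adjusted p = 0.0416), and Ucp1, Ucp3 and Mtch1 did not pass (median -0.28).

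Other transporters of the mitochondrial membranes fell in 7 of 16 genes, with a median of -0.36, and the other 9 did not pass. Those named are the iron-linked sideroflexin Sfxn2 (-1.43), the serine transporter Sfxn1 (-0.81), the calcium uniporter regulator Micu2 (-0.71), Abcb6 (-0.63), Abcb8 (-0.51) and Sfxn5 (-0.34). Sfxn1 read 12.91, 12.51 and 12.95 with saline and 11.71, 12.11 and 12.13 with metformin. Enzymes that make or use the carried substrates fell in 7 of 14 genes, with a median of -0.52, and the other 7 did not pass. Most of these enzymes and transporters are bright on the array, and 17.7% of all genes with a mean of at least 8 and 19.9% of those with a mean of at least 10 fell. Among them were glycerol-3-phosphate dehydrogenase Gpd1 (-1.48), mitochondrial serine hydroxymethyltransferase Shmt2 (-0.98), pyruvate carboxylase Pcx (-0.77), citrate synthase Cs (-0.71), and the aspartate aminotransferases Got1 (-0.77) and Got2 (-0.68), which stand on both sides of the aspartate-glutamate carriers. Cs read 15.29, 15.21 and 15.27 with saline and 14.39, 14.66 and 14.61 with metformin. Acly, which splits the citrate that Slc25a1 exports, had a change of -0.07 with overlapping groups. These counts rest on single arrays too. Leaving out any array but saline replicate 2 gave 0 to 2 import genes, 2 to 4 transporters and 1 to 4 enzymes that fell, and Mtch2 did not pass without saline replicate 1 or without any 1 of the metformin arrays.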

How the data were processed

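The authors made log2 expression per transcript cluster with RMA, which comprises background correction, quantile normalization and a probe summary, in version 4.0 of Transcriptome Analysis Console (named in the submitters' processing notes); the sources used here do not name its variant, the probe definition or the build. The deposited log2 values run from 1.94 to 19.9 over 65956 clusters; values above 16 exceed a 16-bit scan, and folds hold on the deposited scale. The number of arrays limits the precision. The labels call the samples biological replicates. Of the clusters, 30604 have 1 platform symbol, 2146 several and 33206 none listed here. Symbols were updated through Entrez numbers to the RefSeq table of GRCm38.p6 (22818 matched, 827 changed, none of the carriers). The third of clusters with the lowest mean was left out (mean up to 4.03), the brightest cluster per gene kept, and limma 3.58.1 (R 4.3.3) fitted to the 22086 genes left, with lmFit, eBayes and two-sided p-values adjusted by Benjamini-Hochberg. The fit was tested on simulated data. Related carriers were compared by exact permutation of per-array differences. Full values are given for carriers past the threshold and, in each substrate group, for those with the smallest p and the brightest cluster; changes for those up to 0.10; up to 6 genes that fell per partner list. Members, lists and rules were chosen with earlier results of these data known. Slc25a42, Slc25a10, Ucp1, Acly and the pairs were chosen after their values were seen. Deviations from the group means correlated at 0.118, 0.145 and 0.541 for replicate numbers 1, 2 and 3 of the labels. Between unlike numbers they ran from -0.465 (saline 2 and metformin 3) to 0.299 (saline 2 and metformin 1). The main fit and the permutation of per-array differences do not use the numbers. Only the replicate block and the differences within replicate numbers take them as pairs. The sources used here do not say what the numbers stand for, so these pairs are an assumption. Alternatives were each array left out, the replicate block, 2 scalings, 2 filters, the mean over clusters, all clusters, trend with robust options, and array weights.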

Additional observations from a re-analysis of the deposited data

How the results depend on the processing

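With the replicate number as a block 16 carriers fell and 1 rose, and 11.0% of all genes fell (9.08% without the block); Slc25a4 was added and no call of the 16 carriers was lost. The block was added for the partner lists and the related-carrier differences after the data were seen. It gave 1, 5, 5 and 9 genes that fell under other symbols, for import, other transporters and partner enzymes. The 16 calls of the report also stood under both scalings, both filters, the mean over clusters, all clusters, trend with robust options and array weights. Leaving out 1 array at a time gave 2 to 19 carriers that fell, 0 to 2 that rose and medians of -0.33 to -0.24. Separated downwards were 27 to 28, a count that could not drop, because leaving out an array cannot make separated groups overlap. In those fits the genes that fell numbered 0 to 1 under other symbols, 0 to 5 for import, 2 to 9 for other transporters and 1 to 7 for partner enzymes. The median change of the carriers was -0.37 after median-centring, -0.39 after quantile normalization, -0.20 without a filter (45 genes) and -0.36 with a stricter filter (39 genes). Other transporters that fell numbered 11 after centring and 13 after quantile normalization, and partner enzymes 11 after quantile normalization. With array weights 2 carriers rose. No carrier named with an adjusted p up to 0.10 turned its direction in any of the 15 alternatives. Clusters near the filter's limit, such as those of Slc25a18 and Slc25a41, leave changes of those carriers poorly measured.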
